A study of Punica granatum with 14 samples.

Results

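Leaves of pomegranate seedlings treated with B9 were compared with leaves of untreated seedlings (CK) by RNA-seq. The 4 B9 libraries, from plants given 6 or 8 mg/L, were taken as one group and set against the 2 CK libraries, so that 6 of the 14 libraries of the series entered the comparison. The other 8 libraries came from seedlings treated with paclobutrazol or mannitol and serve here as a reference for the levels of DEGs and in alternative fits of the same comparison. The study asked how growth retardants that dwarf pomegranate change its transcriptome. All seedlings were wild-type plants of the cultivar Hongmanao, raised from stem tips in tissue culture on WPM medium with the auxin IBA, which the CK plants received too. CK plants were given distilled water. Leaves were sampled after 90 days, each library came from 1 plant, and each dose and CK had 2 plants. Whether the plants of a group descend from 1 mother plant is not given in the sources used here.

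B9, or daminozide, is a growth retardant used to keep fruit trees and ornamental plants short. It resembles 2-oxoglutarate and inhibits dioxygenases that use this compound as a cosubstrate, among them the enzymes of the late steps of gibberellin synthesis. Gibberellins promote stem elongation, largely by triggering the breakdown of DELLA proteins, which hold back growth. The gene table used here pairs no gene symbol with a product name. Genes are therefore given by symbol and biotype, gibberellin genes and other pathways are not analysed, and the leaf label was not checked against marker genes.

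The total count per library was 21332868 to 28385703 in the 6 libraries. Of the 27893 genes in the file, 18947 passed the filter on low counts and were tested. Levels are given as CPM, which are counts scaled to a common library size with edgeR's TMM factors. CPM are not corrected for gene length, so an order of genes by CPM is an order by reads, not by transcript number. The biological coefficient of variation between the plants of a group was 28.4%, which under B9 includes any difference between the doses. A log2 fold change had a median standard error (SE) of 0.195. Each SE was calculated back from the test, as the absolute log2 fold change divided by the square root of the F statistic. The first principal component of log2 CPM held 58.5% of the variance and put the CK plants at -93.3 and -92.1. The B9 plants lay at 51.4 and 65.9 under 6 mg/L and at 15.2 and 52.9 under 8 mg/L. The 2 groups were thus apart on this axis, with replicate 1 of 8 mg/L nearest to CK. Pearson's r of log2 CPM, taken across genes and thus over points that are not independent, was 0.972 between the CK plants, 0.943 to 0.963 between B9 plants of different dose, and 0.882 to 0.925 between CK and B9 plants.

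Compared to CK, 2702 genes were DEGs under B9, with 1341 up- and 1361 downregulated. Genes were called DEGs when they changed by more than 1 on the log2 scale in either direction and the p of edgeR's quasi-likelihood test, adjusted by the Benjamini-Hochberg method, was under 0.05. The upregulated DEGs made up 7.08% of the tested genes and the downregulated DEGs 7.18%. The median log2 fold change was 1.68 for the upregulated and -1.49 for the downregulated DEGs, and -0.00475 over all tested genes. With genes at the detection floor set to their lower bound, the medians were 1.67 and -1.49. Changes beyond 3 on the log2 scale were found in 233 upregulated and 117 downregulated DEGs. In leaf tissue, fewer cells of a type and less RNA per cell cannot be told apart.

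**Figure D1:**
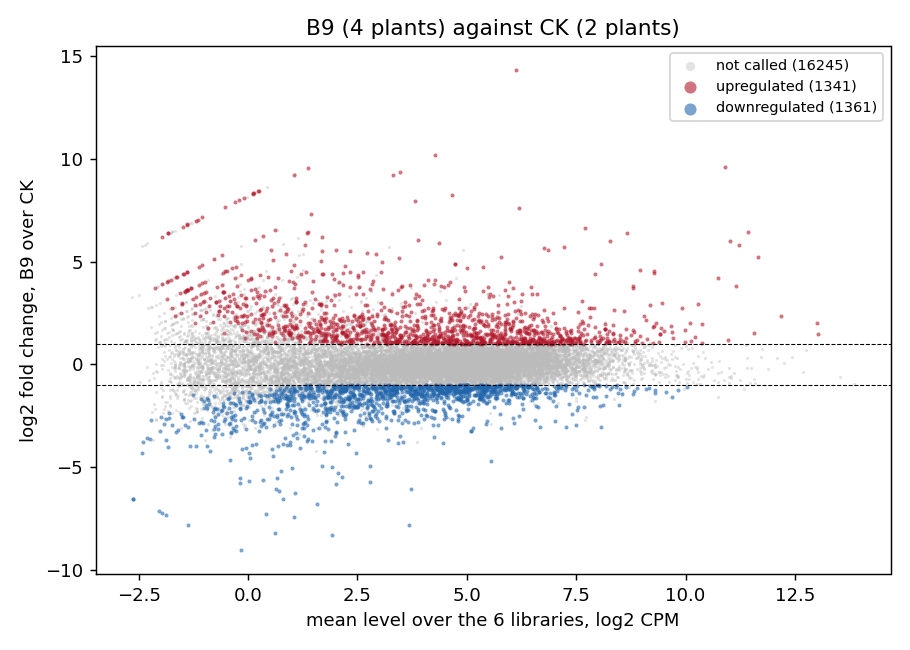
Log2 fold change of B9 over CK (y axis) against the mean level over the 6 libraries in log2 CPM (x axis), with 1 point for each of the 18947 tested genes and dashed lines at the fold threshold. The 1341 upregulated and 1361 downregulated DEGs lie at all levels, and the points in slanted lines at the upper left are genes with 0 or few counts in CK.

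The number of DEGs depended on the CK plants and on the libraries in the fit. Without CK replicate 1, 913 up- and 745 downregulated DEGs were called, and without CK replicate 2, 979 and 720. In these fits, and wherever a call is said to be lost without a CK plant, the spread came from the B9 plants alone and the remaining CK plant was assumed to vary like them. In a fit of all 14 libraries with the same contrast, 721 and 937 were called, of which 702 and 780 were DEGs of the 6 libraries as well. A fit of 12 libraries, without the plants of 6 mg/L paclobutrazol, called 1395 and 1638. Of these, 1244 and 1281 were DEGs of the 6 libraries. The cause of this difference was not tested.

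In each B9 plant the DEGs moved by a similar amount. Relative to the CK mean, the median log2 change of the upregulated DEGs was 1.63 and 1.73 in the plants of 6 mg/L and 1.47 and 1.65 in those of 8 mg/L. The downregulated DEGs had medians of -1.54 and -1.59 under 6 mg/L and of -1.31 and -1.57 under 8 mg/L. Replicate 1 of 8 mg/L had the smallest change in both directions. These genes were chosen on the mean of the 4 plants, so the direction in most plants follows from the choice. All 4 B9 plants lay above both CK plants for 1340 of the 1341 upregulated DEGs, whereas 28.5% of all tested genes had this order. All 4 lay below both CK plants for 1354 of the 1361 downregulated DEGs, compared with 28.9% of all tested genes. The single upregulated DEG whose groups overlapped was LOC116193027, named after its values were seen, with 0.349 and 0.413 CPM in CK and 5.89, 8.78, 9.59 and 0.401 CPM under B9. Replicate 2 of 8 mg/L stayed at the CK level. The call of this gene was lost without either CK plant, at an adjusted p of 0.19 without replicate 1 and 0.17 without replicate 2, and also without replicate 1 or 2 of 6 mg/L (0.071 and 0.07) or replicate 1 of 8 mg/L (0.062).

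The upregulated DEGs took up a larger part of the B9 libraries. Their share of all counts was 4.7% and 4.96% in CK, 17.2% and 18.8% under 6 mg/L, and 14.2% and 15.9% under 8 mg/L. The share of the downregulated DEGs was 7.71% and 7.83% in CK and 2.65% to 3.06% in the 4 B9 plants. Both sets were chosen in these same libraries, so the direction of these shares follows from the choice and only their size is described. The gain was concentrated in few genes. Summed over the upregulated DEGs, the mean level rose by 121100 CPM, and 26 genes were enough to reach 50% of it, with 36.1% in the 10 genes that gained most. The summed loss of the downregulated DEGs was 47080 CPM, for which 94 genes were needed to reach 50%, with 14.5% in the 10 genes that lost most. The median upregulated DEG had 6.38 CPM in CK and 22.4 CPM under B9, and the median downregulated DEG had 18.5 and 6.41 CPM.

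The smallest adjusted p reached was 0.000905, which 10 upregulated and 7 downregulated DEGs with separate groups shared. The 6 of each direction with the largest fold change are described, and these 12 code for proteins. The members left out include the lncRNA LOC116206706, and their absolute log2 fold changes went down to 1.91 among the upregulated and 1.53 among the downregulated. LOC116209163 had 53.7 and 37.7 CPM in CK. Under B9 it had 681 and 562 CPM at 6 mg/L and 725 and 600 CPM at 8 mg/L, a log2 fold change of 3.81 (SE 0.23). Each B9 plant was more than 10 times as high as either CK plant. LOC116197002 rose by the same factor, from 2.52 and 1.86 CPM to 31.2, 36.3, 30.7 and 25.5 CPM, with a log2 fold change of 3.81 (SE 0.22). LOC116215195 had 8.31 and 6.04 CPM in CK and 46.5, 50.8, 49.5 and 54.4 CPM under B9 (log2 fold change 2.81, SE 0.17). Its 4 B9 plants lay close together. LOC116192325 rose from 33.5 and 28.6 CPM to 241, 197, 217 and 181 CPM (log2 fold change 2.75, SE 0.17). LOC116196067 had 6.44 and 7.73 CPM in CK and 35.0, 44.1, 41.4 and 39.4 CPM under B9 (log2 fold change 2.49, SE 0.15). LOC116197060 had 17.6 and 20.2 CPM in CK and 114, 110, 95.6 and 96.5 CPM under B9 (log2 fold change 2.46, SE 0.14). In none of these 6 genes did a B9 plant come near the CK plants.

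Among the 6 downregulated genes of this set, LOC116192045 fell furthest, from 28.8 and 27.7 CPM in CK to 2.66 and 1.93 CPM at 6 mg/L and 2.30 and 3.25 CPM at 8 mg/L. Its log2 fold change was -3.47 (SE 0.21, adjusted p = 0.000905 in edgeR's test). LOC116215350 had 680 and 606 CPM in CK and 90.8, 79.9, 60.2 and 80.5 CPM under B9 (log2 fold change -3.05, SE 0.17). LOC116212413 fell from 445 and 416 CPM to 48.9, 49.5, 57.8 and 64.7 CPM (log2 fold change -2.96, SE 0.14). For both genes the highest B9 plant stood far below the lower CK plant. LOC116196051 had 149 and 170 CPM in CK and 25.3, 19.3, 23.2 and 19.2 CPM under B9 (log2 fold change -2.87, SE 0.14). LOC116210836 had 151 and 150 CPM in CK and 28.5, 22.2, 23.5 and 22.8 CPM under B9 (log2 fold change -2.63, SE 0.12). The CK plants of this gene were almost equal. LOC116210702, which overlaps 1 other annotated gene, had 47.0 and 47.2 CPM in CK and 10.2, 10.7, 10.7 and 8.07 CPM under B9 (log2 fold change -2.25, SE 0.14). Since the strand setting of the counting is not given in the sources used here, reads of overlapping genes cannot be told apart. The fit of all 14 libraries gave LOC116210836 an adjusted p of 0.055, and the calls of the other 11 genes held in every alternative that was run.

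**Figure D2:**
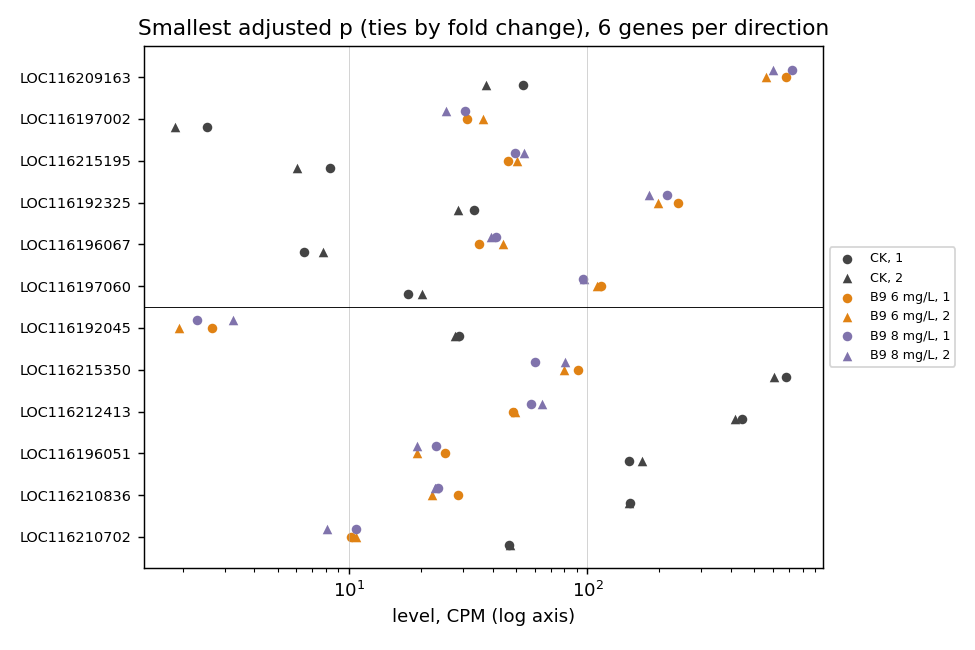
Level in CPM (x axis, log scale) of the 6 up- and the 6 downregulated genes with the smallest adjusted p, ties taken by fold change (y axis), with 1 point per plant, colour for the group and shape for the replicate. In all 12 genes the 4 B9 plants lie on one side of both CK plants, as with LOC116209163 at 562 to 725 CPM under B9 against 37.7 and 53.7 CPM in CK.

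Large numbers of reads moved in a few abundant transcripts. The 3 upregulated DEGs with the highest CPM under B9 made up 0.745% and 0.864% of the counts in CK and 2.25% to 3.35% in the B9 plants. LOC116205967 had 2204 and 3212 CPM in CK, 11769 and 14279 CPM at 6 mg/L, and 7453 and 10073 CPM at 8 mg/L, a log2 fold change of 2.01 (SE 0.36). The plants spread widely within each group, and without CK replicate 1 the call was lost, with a log2 fold change of 1.79 and an adjusted p of 0.055. LOC116209490 rose from 3686 and 4057 CPM to 11099, 11523, 10230 and 9797 CPM (log2 fold change 1.46, SE 0.24). LOC116189090 had 1381 and 1078 CPM in CK and 6177, 7068, 4939 and 7063 CPM under B9 (log2 fold change 2.36, SE 0.27). For these 2 genes the fit of all 14 libraries gave adjusted p-values of 0.053 and 0.05. All 3 code for proteins.

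The 3 downregulated DEGs with the highest CPM in CK fell by 1.08 to 1.57 on the log2 scale. LOC116199833 fell from 1715 and 1246 CPM to 550, 449, 450 and 539 CPM (log2 fold change -1.57, SE 0.18). LOC116205725 had 1353 and 1602 CPM in CK and 776, 513, 645 and 594 CPM under B9 (log2 fold change -1.23, SE 0.19). LOC116193112 had 1738 and 1514 CPM in CK and 749, 584, 937 and 801 CPM under B9 (log2 fold change -1.08, SE 0.21). The groups of all 3 genes were apart, but LOC116193112 lay close to the fold threshold. It was below that threshold without CK replicate 1, at -0.947, without replicate 2 of 6 mg/L, at -0.936, and with 8 mg/L alone, at -0.899, and the fit of all 14 libraries gave it an adjusted p of 0.096.

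Some DEGs had almost no counts in 1 of the 2 groups. A gene was taken as being at the floor in a group when each of its libraries had 3 counts or fewer. Both CK plants were at the floor for 100 of the upregulated DEGs, of which 21 had 0 counts in both. All 4 B9 plants were at the floor for 25 of the downregulated DEGs, of which 7 had 0 counts in all 4. A gene at the floor in 1 group passed the filter on low counts only through the other group, so its direction follows largely from the filter. The floor had to hold in 2 libraries for CK and in 4 for B9, so the numbers of the 2 directions are not comparable. Tested genes at the floor were not counted beyond the DEGs. LOC116202255 had 0 counts in both CK plants and 2313, 3945, 1777 and 1632 counts under B9. Its mean under B9 was at least 849.6-fold higher than CK, taking 3 counts per CK library as the limit of detection. LOC116212642 had 0 and 1 counts in CK and 1205, 346, 716 and 424 counts under B9, a ratio of 1406 (95% interval 252 to 55545). Intervals of such ratios are exact for the summed counts and cover counting error only. LOC116211880 was at 1.82 and 5.62 CPM in CK and reached 5133, 1839, 2835 and 1659 CPM under B9 (log2 fold change 9.59, SE 0.93). Among the DEGs with a mean of at least 1 CPM, it had the largest rise of those counted above the floor in CK. Its B9 plants differed from each other about as much as its CK plants did. LOC116199097, which was chosen after its values were seen, had 1 and 0 counts in CK and 606, 406, 294 and 201 counts under B9, a ratio of 787 (95% interval 141 to 31115).

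Of the 25 downregulated DEGs at the floor under B9, 6 had CK plants more than 3-fold apart in CPM, among them the 3 with the largest change and a mean of at least 1 CPM. LOC116194413 had 122 counts in one CK plant and 16 in the other, and 0 counts in all 4 B9 plants. Its CK mean was at least 18.6-fold above the B9 level, a bound that rests mainly on CK replicate 1. The CK plants had 4.74 and 0.661 CPM, and the call was lost without CK replicate 1. LOC116196999 had 527 and 48 counts in CK and 0, 0, 1 and 2 counts under B9, which made it higher in CK by a ratio of 367 (95% interval 125 to 1784). LOC116195583 showed the opposite order of the CK plants, with 12 and 211 counts, and had 0, 0, 1 and 0 counts under B9 (ratio 427, 95% interval 75.8 to 16936). The CK plants were closer for LOC116192912 and LOC116187874, which were chosen after their values were seen. LOC116192912 had 120 and 108 counts in CK and 1, 2, 2 and 1 counts under B9 (ratio 72.7, 95% interval 32.9 to 200). LOC116187874 had 216 and 96 counts in CK and 0, 1, 0 and 2 counts under B9 (ratio 199, 95% interval 67.5 to 971). All 5 of these genes code for proteins.

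Few genes were called between the 2 doses of B9. Tested directly, 8 mg/L against 6 mg/L gave 2 DEGs, which is 0.0106% of the tested genes. Both were lower at 8 mg/L, and no gene was higher. In edgeR's test, 2206 of the 18947 genes had an unadjusted p under 0.05. This is more than the share of 0.05 that would pass if no gene differed. Of these genes, 697 differed by over 1 on the log2 scale, and DESeq2 called 274 genes. The median SE of this comparison was 0.203 on the log2 scale, with 2 plants per dose. The low number of calls therefore does not show that few genes differed. LOC116187053 had 335 and 359 counts in CK, 398 and 750 counts at 6 mg/L, and 0 and 1 counts at 8 mg/L. It was thus close to undetected at the higher of the B9 doses, with an adjusted p of 0.0498 in edgeR's test. Both plants of 6 mg/L paclobutrazol were also at 0 CPM for this gene. LOC116192970 had 13.28 and 14.02 CPM in CK, 32.9 and 19.6 CPM at 6 mg/L, and 0.743 and 0.923 CPM at 8 mg/L. Its log2 fold change between the doses was -4.97 (SE 0.33, adjusted p = 0.0498). In the scaling of all 14 libraries, 1 plant of 6 mg/L paclobutrazol was at 0.399 CPM and the other at 25.6 CPM. Neither gene was a DEG of B9 against CK, since the 2 doses lay on opposite sides of CK. Both calls were lost without CK replicate 1 or 2 (adjusted p = 0.14 for each gene) and without replicate 1 (0.39) or replicate 2 (0.11) of 8 mg/L. Without replicate 1 of 6 mg/L the adjusted p of LOC116192970 was 0.055, and without replicate 2 that of LOC116187053 was 0.061.

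The DEGs of B9 against CK had slightly larger median changes at the lower dose. The upregulated DEGs had a median log2 fold change of 1.73 at 6 mg/L and 1.59 at 8 mg/L, and 886 of the 1341 changed more at 6 mg/L. The downregulated DEGs had medians of -1.57 and -1.45, and 806 of the 1361 changed more at 6 mg/L. Both doses were measured against the same CK plants, and the difference of the medians was not tested. By plant, replicate 2 of 8 mg/L had medians of 1.65 and -1.57, between those of the plants of 6 mg/L. Only replicate 1 of 8 mg/L was smaller, at 1.47 and -1.31. The genes share these plants, and the share of all tested genes that changed more at 6 mg/L was not counted.

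The levels of the DEGs were also set beside those under the other treatments. This is a description, since the genes were selected with the same B9 libraries. All 4 B9 plants exceeded all 4 mannitol plants in 840 of the 1341 upregulated DEGs (62.6%), compared with 18.3% of all tested genes. They were below all 4 mannitol plants in 772 of the 1361 downregulated DEGs (56.7%), compared with 15.8%. Against the 4 paclobutrazol plants, which spread widely, the counts were 285 (21.3%) for the upregulated DEGs with 8.15% of all tested genes, and 259 (19%) for the downregulated DEGs with 7.9%. The B9 plants lay beyond all 10 other libraries in 181 up- and 151 downregulated DEGs. The share of all tested genes with this order was not counted, so these 2 numbers have no background beside them. LOC116202255, which had 0 counts in CK, was at 62.1 to 174 CPM in the B9 plants in the scaling of all 14 libraries, and at no more than 7.40 CPM under mannitol and 6.48 CPM under paclobutrazol. LOC116189090 had 4872 to 6904 CPM under B9, 331 to 1277 CPM under mannitol and 412 to 2684 CPM under paclobutrazol. The downregulated LOC116215350 had 59.4 to 86.4 CPM under B9, 177 to 559 CPM under mannitol and 410 to 1194 CPM under paclobutrazol. Other genes reached the B9 levels in some paclobutrazol plants and exceeded both CK plants in all 4 of them. LOC116211880 had 1622 to 4883 CPM under B9, 34.5 to 4954 CPM under paclobutrazol and 20.4 to 288 CPM under mannitol. Its CK plants had 1.74 and 5.33 CPM. LOC116197002 had 24.9 to 34.8 CPM under B9, 7.86 to 154 CPM under paclobutrazol and 2.09 to 3.87 CPM under mannitol. In CK it had 1.76 and 2.40 CPM.

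Most DEGs were protein-coding genes, with 1260 up- and 1293 downregulated of 18083 tested. Long noncoding RNAs (lncRNAs), which are transcripts that carry no long reading frame, were called about as often in each direction, with 68 upregulated (8.59%) and 66 downregulated (8.33%) of 792 tested. These shares lie close to the 7.08% and 7.18% of all tested genes. Their median log2 fold change was 0.0142. The lncRNAs described here were chosen after their values were seen. LOC116206706 rose from 9.63 and 9.84 CPM in CK to 36.5, 35.2, 35.1 and 39.2 CPM under B9 (log2 fold change 1.91, SE 0.11). LOC116215714 had 12.7 and 11.0 CPM in CK and 44.6, 36.9, 36.0 and 40.5 CPM under B9 (log2 fold change 1.74, SE 0.14). In both genes the 4 B9 plants were close together and well above CK. LOC116206178 had the highest CPM of these lncRNAs, with 256 and 199 CPM in CK and 775, 891, 754 and 767 CPM under B9 (log2 fold change 1.81, SE 0.17). LOC116199094 had 1 count in each CK plant and 91, 57, 131 and 85 counts under B9, a ratio of 95.1 (95% interval 26.1 to 788). Among the downregulated lncRNAs, LOC116211972 fell from 17.1 and 12.7 CPM to 2.27, 2.16, 3.22 and 3.25 CPM (log2 fold change -2.44, SE 0.25). LOC116205532 fell from 5.20 and 6.66 CPM to 1.26, 0.781, 0.779 and 0.883 CPM (log2 fold change -2.68, SE 0.31). The groups were apart in all 6 lncRNAs. In the fit of all 14 libraries, LOC116206706 and LOC116206178 had adjusted p-values of 0.061 and 0.063.

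Small nucleolar RNAs (snoRNAs), which guide the chemical modification of ribosomal RNA, were called in the upward direction only. Of the 53 snoRNA genes tested, 11 were upregulated (20.8%, compared with 7.08% of all tested genes) and none was downregulated, and 44 had a positive log2 fold change. All 4 B9 plants lay above both CK plants in 26 of them (49.1%, compared with 28.5% of all tested genes) and below in 2, whereas 28.9% of all tested genes lay below. The median log2 fold change was 0.971, and the same median was obtained with genes at the floor set to their bound. Summed over the snoRNA genes, the level was 43.2 and 48.8 CPM in CK, 83.8 and 105 CPM at 6 mg/L, and 87.4 and 98.9 CPM at 8 mg/L. The sums of the 2 groups did not overlap. LOC116212571 had the highest CPM under B9 of those called, with 3.61 and 4.71 CPM in CK and 12.7, 13.2, 14.8 and 14.8 CPM under B9. Its log2 fold change was 1.74 (SE 0.19, adjusted p = 0.00213 in edgeR's test). LOC116206512 had 1.16 and 1.78 CPM in CK and 6.23, 6.99, 5.66 and 7.43 CPM under B9 (log2 fold change 2.16, SE 0.29, adjusted p = 0.00341). These 2 genes were named after their values were seen, and both were called again without any single library. The called snoRNAs had 0 to 138 counts in the CK plants, so most rested on few reads. Some were at the floor in CK, such as LOC116206495 (0 and 2 counts), LOC116215762 (1 and 0) and LOC116209720 (2 and 1). These passed the filter on low counts only through the B9 plants, so their direction follows largely from the filter. The shares given here are set beside all tested genes, and those of genes at a similar level were not counted. Without CK replicate 1 or 2, 3 snoRNAs were called in each case, without replicate 2 of 6 mg/L 5, and without replicate 2 of 8 mg/L 4. The fit of all 14 libraries called 2, and the fit of 12 libraries, without 6 mg/L paclobutrazol, called 11.

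The other small RNA classes held few tested genes, and those named were chosen after their values were seen. Of 6 tested genes for small nuclear RNAs (snRNAs), the RNA parts of the spliceosome, 1 was up- and 2 were downregulated. LOC116193360 had 10.9 and 8.60 CPM in CK and 3.62, 2.48, 2.76 and 1.85 CPM under B9 (log2 fold change -1.87, SE 0.29). It overlaps 1 other annotated gene, so its reads cannot be told apart from those of that gene. LOC116190300 had 6.13 and 4.38 CPM in CK and 2.17, 2.16, 1.63 and 0.883 CPM under B9 (log2 fold change -1.62, SE 0.40). The 2 groups did not overlap in either gene, and the call of LOC116190300 was lost without CK replicate 1 (adjusted p = 0.14) or CK replicate 2 (0.062). The fit of all 14 libraries called no snRNA or rRNA gene named here, with adjusted p-values of 0.12 for LOC116193360, 0.21 for LOC116190300, 0.077 for LOC116189670 and 0.17 for LOC116190196. The upregulated snRNA LOC116189670 had a ratio of 14.1 from 2 counts in CK and 54 under B9 (95% interval 3.72 to 119), and its call was lost without either CK plant (0.18 and 0.062), without replicate 2 of 6 mg/L (0.071) and without replicate 1 (0.064) or 2 (0.081) of 8 mg/L. Of 11 tested ribosomal RNA (rRNA) genes, LOC116190196 was upregulated, from 24.6 and 22.6 CPM to 29.7, 44.5, 78.6 and 84.1 CPM (log2 fold change 1.33, SE 0.43, adjusted p = 0.0492). It was higher at 8 than at 6 mg/L in every plant, and its call was lost without CK replicate 1 (adjusted p = 0.18) or 2 (0.2), replicate 2 of 6 mg/L (0.055), or replicate 1 (0.078) or 2 (0.09) of 8 mg/L. The share of counts in rRNA genes was 0.0663% and 0.0769% in CK, 0.0675% and 0.16% at 6 mg/L, and 0.191% and 0.195% at 8 mg/L. Replicate 1 of 6 mg/L had an rRNA share between those of the CK plants and a snoRNA sum of 83.8 CPM. Reads with several locations were removed before counting, so this share covers only part of the rRNA reads and does not measure carry-over. The part of rRNA carry-over in the snoRNA values was not tested.

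**Figure D3:**
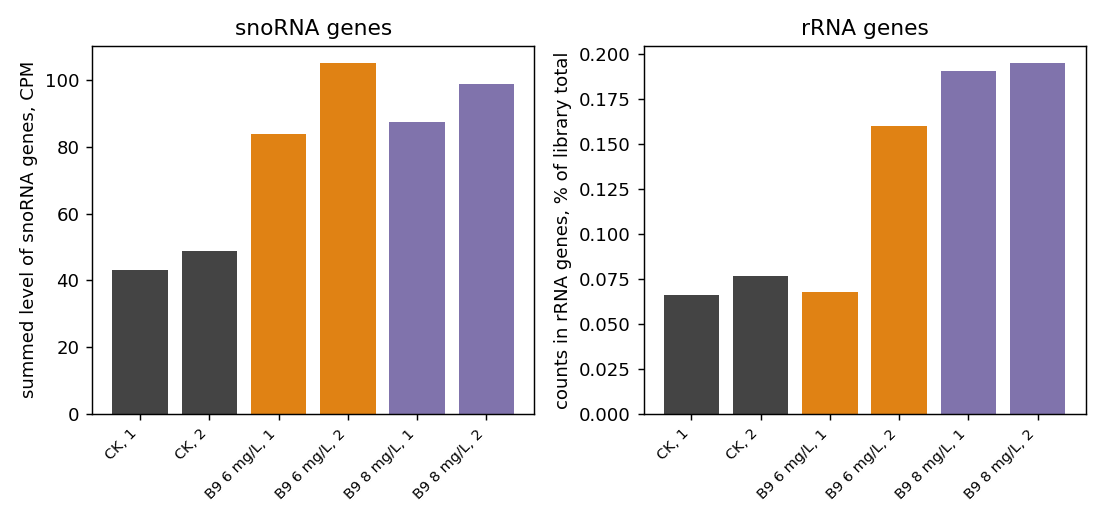
Summed level of all snoRNA genes in CPM (left) and counts in rRNA genes as a percentage of the library total (right), with 1 bar per plant (CK grey, 6 mg/L orange, 8 mg/L purple). The snoRNA sum is 83.8 CPM or more in every B9 plant against 43.2 and 48.8 CPM in CK. The rRNA share of replicate 1 of 6 mg/L (0.0675%) lies between those of the CK plants (0.0663% and 0.0769%).

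The change under B9 also varied with gene length. Across 18945 genes with a length in the RefSeq table, Spearman's rho between the log2 change and gene length was -0.15 and -0.14 in the plants of 6 mg/L and -0.26 and -0.29 in those of 8 mg/L. Between the 2 CK plants it was 0.11. The genes share their libraries, so rho is given as a description. In the quintile of genes with the shortest span, 12.1% were upregulated and 6.86% downregulated, with a median log2 fold change of 0.245. In the quintile with the longest span, 3.06% were upregulated and 11.5% downregulated, with a median of -0.302. The trend was steeper in both plants of 8 mg/L than in those of 6 mg/L. When it was removed from each library, 1220 up- and 1206 downregulated DEGs were called, among them 1096 and 1047 of the DEGs given here. The snoRNA genes have a median length of 97 bases, and after the removal 2 of them were called, with a median log2 fold change of 0.284. The part of gene length in the snoRNA result and in the single calls was not tested further.

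**Figure D4:**
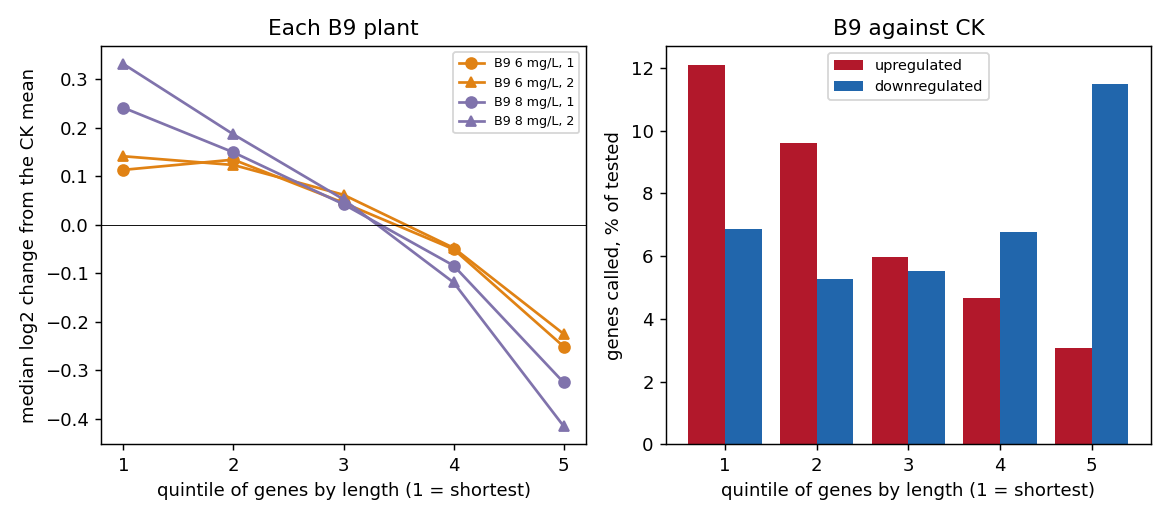
Left, median log2 change of each B9 plant from the CK mean (y axis) in quintiles of the tested genes by length (x axis, 1 is the shortest), and right, percentage of tested genes called up- or downregulated in each quintile. The medians fall from the shortest to the longest quintile in both plants of 8 mg/L, where they start at 0.241 and 0.331, and the upregulated share falls from 12.1% to 3.06%.

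The calls were also counted in quintiles of mean CPM, which is not corrected for length. In the quintile of genes with the highest CPM, 8.5% were upregulated and 4.06% downregulated. In the quintile with the lowest CPM, the shares were 8.5% and 9.37%. The upregulated share was thus the same at both ends of the range, with 5.17% to 7.76% in between, and the downregulated share was highest in the second quintile, at 10.2%.

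Some DEGs lay side by side in the genome. Neighbours were taken from the order of the tested genes in the RefSeq table of the assembly ASM765513v2, and coordinates are not given because the build of the counted annotation is not named in the sources used here. Of 1325 upregulated DEGs with a next gene, 166 (12.5%) were followed by another upregulated DEG, compared with 7.07% upregulated among all placed genes. Of 1353 downregulated DEGs, 150 (11.1%) were followed by a downregulated one, compared with 7.22%. Runs of 3 or more numbered 19 among the up- and 18 among the downregulated DEGs. The number of runs to be had if the DEGs lay in random order was not counted, so these 2 numbers have no background beside them. Some runs, such as those that start at LOC116187584 and LOC116216014, hold genes that overlap another annotated gene. Reads of such genes cannot be told apart, and they were not left out of the runs or of the shares of neighbours. Neighbouring genes can be copies of each other, and reads that fit several copies were removed before counting.

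A run of 4 upregulated protein-coding genes was chosen after its values were seen. LOC116214823 had 73.3 and 194 CPM in CK and 2087, 3328, 1849 and 2672 CPM under B9 (log2 fold change 4.22, SE 0.52). Its neighbour LOC116214822 had 3.38 and 10.9 CPM in CK and 712, 648, 498 and 554 CPM under B9 (log2 fold change 6.40, SE 0.56). LOC116214825 rose from 77.0 and 176 CPM to 6954, 5744, 2926 and 3341 CPM (log2 fold change 5.23, SE 0.62). LOC116213226 had 4.97 and 9.22 CPM in CK, 776 and 669 CPM at 6 mg/L, and 101 and 281 CPM at 8 mg/L (log2 fold change 6.01, SE 1.03). In all 4 genes CK replicate 2 was higher than replicate 1, and the lowest B9 plant stood above both. The dose comparison did not call any of the 4, with adjusted p-values of 0.336 to 0.873, and without CK replicate 1 the adjusted p of LOC116213226 was 0.052. In the scaling of all 14 libraries, LOC116214825 had 2886 to 6616 CPM under B9, 841 to 1811 CPM under mannitol and 394 to 7554 CPM under paclobutrazol. The fit of all 14 libraries gave LOC116214823 an adjusted p of 0.051.

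A further upregulated run of 4 was also chosen after its values were seen. LOC116192443 had 379 and 340 CPM in CK and 1568, 1481, 1310 and 1489 CPM under B9 (log2 fold change 2.02, SE 0.17). Next to it, LOC116192444 was almost undetected in CK, at 0.233 and 0 CPM, and had 5.36, 6.48, 6.44 and 5.54 CPM under B9. LOC116208519 rose from 57.6 and 59.3 CPM to 169, 192, 143 and 183 CPM (log2 fold change 1.55, SE 0.15). The weakest change of the run was that of LOC116208516, from 61.1 and 55.3 CPM to 116, 153, 99.3 and 116 CPM (log2 fold change 1.06, SE 0.19). Without replicate 2 of 6 mg/L its log2 fold change was 0.958, which is below the threshold.

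Of the downregulated runs, 2 are described, both chosen after their values were seen. In the first, LOC116209216 fell from 29.0 and 31.9 CPM to 1.40, 2.34, 1.27 and 3.89 CPM (log2 fold change -3.77, SE 0.41). LOC116209220 fell from 14.4 and 18.6 CPM to 1.40, 4.18, 2.20 and 3.97 CPM (log2 fold change -2.49, SE 0.42). The other members had few reads, with LOC116209215 at 0.854 and 1.45 CPM and LOC116209218 at 3.11 and 2.81 CPM in CK, and none of their B9 plants exceeded 0.597 CPM. Without CK replicate 2 the adjusted p of LOC116209215 was 0.1 and that of LOC116209218 was 0.071, and without CK replicate 1 the latter was 0.084. The fit of all 14 libraries gave LOC116209215 an adjusted p of 0.064. The second run contains LOC116212413, one of the genes with the smallest adjusted p. Beside it lay LOC116211592, with 121 and 93.4 CPM in CK and 39.6, 37.2, 55.4 and 43.2 CPM under B9 (log2 fold change -1.29, SE 0.18). LOC116211634 had 534 and 523 CPM in CK and 265, 224, 240 and 253 CPM under B9 (log2 fold change -1.11, SE 0.12). The last member, LOC116210277, had 3.11 and 6.16 CPM in CK and 0.290, 0.0919, 1.06 and 0.0401 CPM under B9, and its call was lost without CK replicate 1 (adjusted p = 0.077) or 2 (0.16) and without replicate 1 (0.065) or 2 (0.054) of 6 mg/L.

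**Figure D5:**
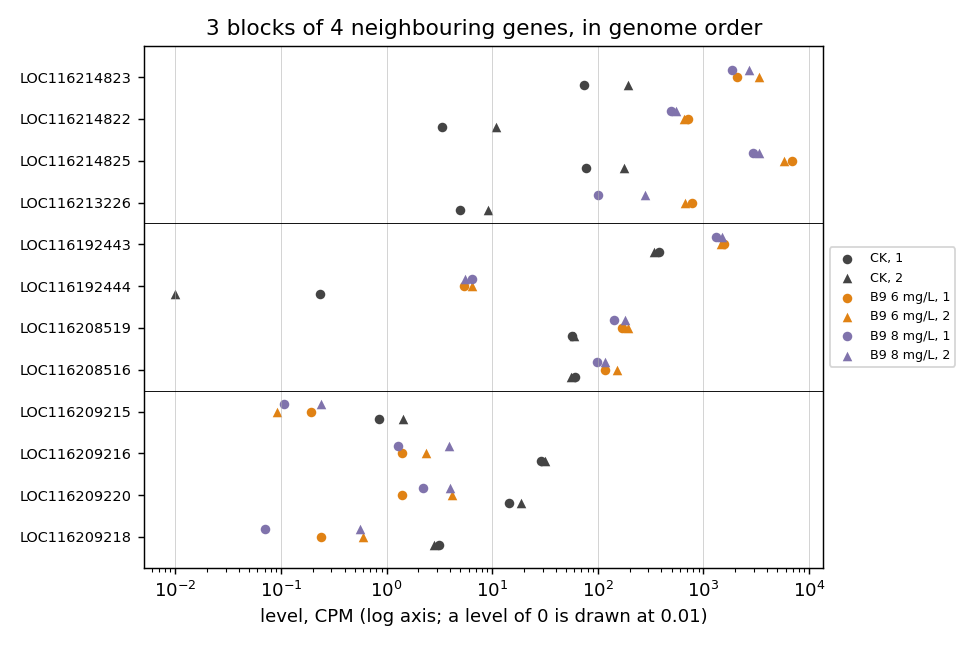
Level in CPM (x axis, log scale) of 3 runs of 4 neighbouring genes in genome order (y axis), with 1 point per plant, colour for the group and shape for the replicate. A level of 0 (LOC116192444 in CK replicate 2) is drawn at 0.01 CPM. In the upper runs every B9 plant lies to the right of both CK plants, and in the lowest run to the left.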

How the data were processed

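Leaf RNA of single plants was extracted with TRIzol and sequenced from NEBNext Ultra libraries. The authors filtered the reads, aligned them with hisat2, kept only reads with a unique location and assigned them to genes with featureCounts. The table they deposited holds the resulting counts of 27893 genes in 14 libraries, without normalization. Program versions, genome build and strand setting are not given in the sources used here. Of the gene symbols, 27546 matched the RefSeq table of the assembly ASM765513v2, which gave biotype, length and order, and 347 did not.

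Counts of 6 libraries were analysed in R 4.3.3 with edgeR 4.0.16, with filterByExpr (minimum count 10), TMM and the quasi-likelihood test of 2 groups (4 residual degrees of freedom). The doses were compared in a fit of 3 condition means. P-values were adjusted over 18947 genes by the Benjamini-Hochberg method. The p-values set the difference of the groups against the spread within the 2 CK and 4 B9 plants, moderated over genes. In the fit of 2 groups, the spread under B9 includes any difference between the doses. Log2 CPM values used a prior count of 2. Fold bounds took 3 counts per library as the floor and set the mean of the other group against it. The steps were tested on simulated data.

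Named genes were, among DEGs whose groups did not overlap, the 6 with the smallest adjusted p in each direction (ties by the larger fold change), the 3 most abundant, the 3 with the largest change and a mean of at least 1 CPM, and any DEG of the dose comparison. Gene families and promoter words needed sequences that were not used here. The groups, lists and rules were chosen with earlier results of these data known. Alternatives were DESeq2 1.42.0, 2 other scalings, 2 other filters, fits of 14 or 12 libraries, a replicate block, each library left out, the adjusted p alone, removal of the trend with length, 3 condition means, and each dose alone.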

Additional observations from a re-analysis of the deposited data

Results flagged for a closer look

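Over the 4 B9 plants, 59 genes named here were examined for a plant far from the other 3, by the gap to the nearest plant divided by the whole range of log2 CPM. The gap passed Dixon's 95% critical value for 4 samples in 6 of them, and chance passes it in about 1 of 20 groups. LOC116210702 had a gap of 0.831, with replicate 2 of 8 mg/L lowest at 8.07 CPM and the others at 10.2 to 10.7 CPM. The gap was 0.837 for the lncRNA LOC116206178, where replicate 2 of 6 mg/L was highest at 891 CPM and the others had 754 to 775 CPM. LOC116193027 had a gap of 0.839, with replicate 2 of 8 mg/L at 0.401 CPM and the others at 5.89 to 9.59 CPM. For the snRNA LOC116189670 the gap was 0.932, with replicate 1 of 6 mg/L lowest at 0.193 CPM. LOC116195583 had a gap of 1 from a single count in replicate 1 of 8 mg/L, with 0 counts in the others. LOC116194413 also had a gap of 1, although all 4 B9 plants had 0 counts, so that it came from the prior count and library size alone.

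The difference between the doses passed the test for LOC116192970, with a log2 fold change of -4.97 at 8 against 6 mg/L, and for LOC116187053, with -10.1, where 0 and 1 counts at 8 mg/L make the fitted value dependent on the prior count.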

How the results depend on the processing

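The fold changes of the 57 genes named for B9 against CK kept their direction in all 1074 values from the alternatives, and 1002 of them kept their call. Of the 72 lost calls, 14 came with all 14 libraries in the fit, 12 without CK replicate 1 and 9 without CK replicate 2. No DEG was called in the opposite direction under any alternative. The fit of all 14 libraries gave 721 upregulated DEGs, and the adjusted p alone gave 3458 up- and 3171 downregulated genes. The fit of 12 libraries, without 6 mg/L paclobutrazol, gave 1395 up- and 1638 downregulated DEGs, and 1 of the named calls was lost in it. Leaving out 1 library at a time gave 913 to 1427 upregulated and 720 to 1703 downregulated DEGs. Scaling by library size alone moved the upregulated part of the calls from 49.6% to 43.2%. For 8 against 6 mg/L, DESeq2 called 274 genes (222 higher and 52 lower), scaling by library size alone and a filter at a mean of 50 counts each 0 (by unadjusted p under 0.05 and the same fold, edgeR gave 698 and 454), and the fit of all 14 libraries 1. Leaving out 1 library at a time gave 0 to 4. The cause of these differences was not tested. The replicate numbers pair no plants by the labels, and deviations from the group means correlated at 0.084, 0.1 and 0.41 for CK with 6 mg/L, CK with 8 mg/L and 6 with 8 mg/L. With a replicate block, 1375 up- and 1329 downregulated DEGs were called, 1260 and 1265 of which were also called without it, and 3 genes between the doses. With 2 CK plants, changes in weakly counted genes were limited by the spread between these plants, and with 3 counts per library as the floor smaller levels were not detectable at this depth.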
